A study of Mus musculus with 14 samples.

Results

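The genes described here are the protein-coding neighbours of Tln1 on mouse chromosome 4. They were selected on position and on 1 measured value, the total read number: they lie fully between 33531519 and 53562691 of GRCm38, within 10 Mb of Tln1, and have at least 100 estimated reads in total over the 14 sequenced samples. Tln1 itself and the B cell genes Pax5 and Cd72 were left out by name. The annotation has 185 protein-coding genes in this window, of which 182 were in the tables, 22 were at 0 in every table, and 113 met the rule. The tables held 30284 genes in all, and 15775 were tested. All 113 flanking genes passed the filter on low counts.

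RNA was sequenced from splenic regulatory T cells of C57/B6 mice, sorted on the Foxp3 and YFP signals. The control animals were Tln1 wt/wt Foxp3 cre/wt and the knockout animals Tln1 fl/fl Foxp3 cre/wt, so every animal carried the Cre allele at Foxp3 and the groups differed at Tln1. Libraries were made from 1 or 2 animals each, and no label says which animals stand behind which number. The 14 samples formed 4 control units and 3 knockout units of 2 samples each, with 13017008 to 39706502 estimated reads per control unit and 39314880 to 56772674 per knockout unit. The total Tln1 level does not check the label: 668 ± 128 against 901 ± 113 CPM (SD, n = 4 and n = 3), a log2 fold change of 0.43 ± 0.18 (SE; edgeR adjusted p = 0.126). That sign turned with an offset for effective length (-0.40) and with a least-squares offset for GC content and length (-0.25). The least-squares offset moved the median of all genes tested to a similar negative value, so Tln1 lay near that median there. The units are called knockout-labelled, after their label alone. Foxp3, the marker of the sort, was at 468, 324, 478 and 406 CPM in the control units and at 369.6, 514 and 401 CPM in the knockout-labelled units.

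Tln1 encodes talin-1, the adaptor that links integrins to actin and switches them to their active form. A floxed allele is inherited together with its close neighbours on the chromosome, and in mammals such neighbours often share base composition or a start region. The segment around Tln1 holds genes of very different function, among them chemokine genes, sugar-pathway enzymes, chaperones, ubiquitin ligases, RNA-processing factors and the TGF-beta receptor gene Tgfbr1. The comparison asks whether the messenger RNA levels of these neighbours differed between the groups, and whether that varied with the distance from Tln1.

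Few of the flanking genes changed. In edgeR's quasi-likelihood test at a false discovery rate of 0.05, 4 of 113 were higher in the knockout-labelled units (Arhgef39, Gba2, Msantd3 and Tmem246), beside 7.07% of all genes tested, and 2 were lower (Akirin2 and Trim14), beside 6.52%. These 6 are 5.31% of the flanking genes. Over all genes tested the share called was 13.6%, and over the 705 other protein-coding genes of chromosome 4 with the same count minimum it was 15.04%. The median log2 fold change of the 113 was 0.03, against 0.06 over all genes tested, with 62 above 0 and 51 below. For 77 of them the 95% interval of the log2 fold change lay between -1 and 1, which is within 2-fold in either direction. The control and knockout-labelled units did not overlap for 23 flanking genes (11 higher and 12 lower), which is 20.4%, against 30.8% of all genes tested. In bulk samples such as these, fewer cells that express a gene and less RNA per cell cannot be told apart. At an unadjusted p under 0.05 there were 26 flanking genes, and the share of all genes tested at that level was not counted. The DESeq2 Wald test called 13, with all 6 among them, against 22.5% of all genes. In edgeR without control unit 4, and also without knockout-labelled unit 3, 0 of the 113 were called (19 and 18 at an unadjusted p under 0.05). Without control unit 2 or knockout-labelled unit 2 there were 2. Fewer of all genes tested were called in those fits too.

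**Figure D1:**
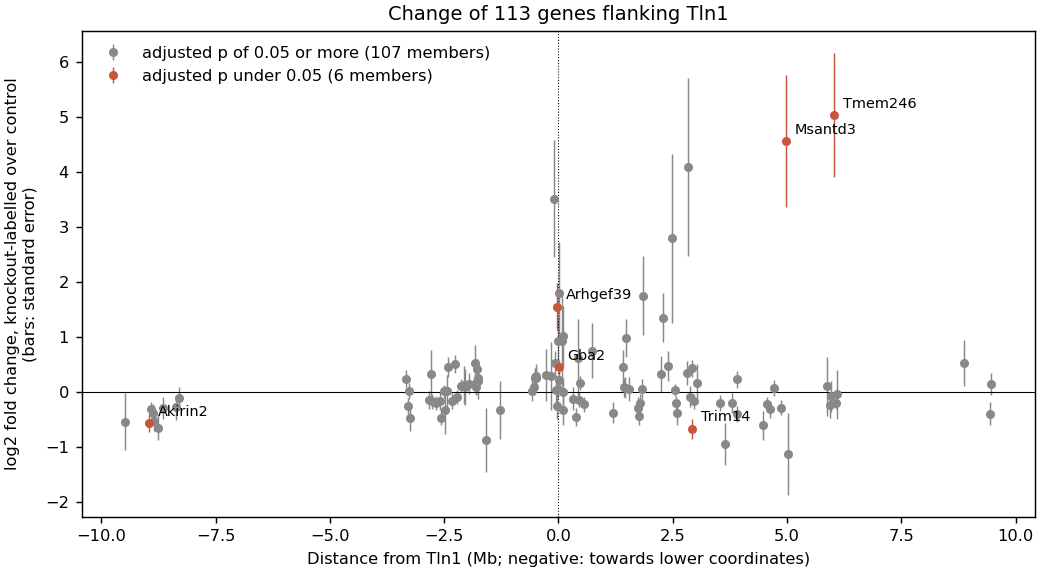
Log2 fold change (knockout-labelled over control, y axis) of the 113 flanking genes against the distance from Tln1 in Mb (x axis; negative towards lower coordinates). Points are genes and bars are standard errors; the 6 genes with an adjusted p under 0.05 are in red, from Trim14 at -0.67 to Tmem246 at 5.04.

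The count minimum bears on these numbers. In the control units alone, 12 of the 113 had fewer than 100 estimated reads, and in the knockout-labelled units alone 3 of those did. All 12 thus reached the minimum only with the knockout-labelled units. Those units alone held 100 or more for 9 (Rusc2, Msmp, Npr2, Fam221b, Shb, Tmod1, Msantd3, Acnat1 and Tmem246). Atp8b5, Ccin and Tmeff1 needed the reads of both groups. A higher level or more reads in the knockout-labelled units were therefore partly a condition for being included. Just inside the minimum were Msantd3, with 110.0 estimated reads in total, and Ccin, with 111, and just outside were Ccdc180, with 97.5, and Anks6, with 89. Ccin encodes calicin, a cytoskeletal protein of sperm heads, and was at 0.551, 0.0977, 0.3496 and 0.6095 CPM in the control units and at 0.421, 0.944 and 0.425 CPM in the knockout-labelled units, which overlap. At the ends of the window, Spaca1 (inside) and Rngtt (outside) had log2 fold changes of -0.55 and -0.15 at the low end. Abca1 (inside) and Slc44a1 (outside) had 0.14 and -0.09 at the high end.

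Of the 10 flanking genes nearest to Tln1, 5 on each side, 2 rose (Arhgef39 and Gba2) and 0 fell, beside 7.07% higher and 6.52% lower over all genes tested. On the minus strand, Tln1 occupies 43531519 to 43562691. Creb3 (43562332 to 43567060, plus strand) overlaps its 5′ end and is read away from it. Creb3 encodes a membrane-bound transcription factor that is released by proteolysis, and it was at 24.9, 28.4, 28.3 and 27.6 CPM in the control units and at 31.5, 26.2 and 27.2 CPM in the knockout-labelled units. The groups overlapped, and the log2 fold change was 0.05 ± 0.14 (SE; edgeR adjusted p = 0.831), with a 95% interval of -0.26 to 0.37. Exons on the other strand, of Tln1 at its start and of Gba2 at its end, cover 20.8% of the exon bases of Creb3. Because the kit did not keep the strand, reads of Creb3 cannot be fully told apart from those of Tln1 and Gba2.

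Gba2, the next gene (43566928 to 43578873, minus strand), rose. It encodes the non-lysosomal glucosylceramidase, and it was at 62.8, 57.6, 70.7 and 65.5 CPM in the control units and at 76.5, 100.3 and 86.7 CPM in the knockout-labelled units, with every knockout-labelled unit above every control unit. The log2 fold change was 0.45 ± 0.13 (SE; edgeR adjusted p = 0.0484), and the call held in 1 of 7 fits that left out 1 unit. With offsets for GC content and transcript length, which take out a trend shared by all genes, it was 0.20 (adjusted p = 0.240) with a robust fit of the trend and -0.08 with a least-squares fit. The median of all genes tested was itself negative with least squares, and Gba2 lay above that median in both fits. Rgp1, whose protein is a subunit of the exchange complex for Rab6 at the Golgi, starts 158 bases inside Gba2 on the other strand. Rgp1 was at 101, 97.99, 118 and 86.8 CPM in the control units and at 103, 129.8 and 121 CPM in the knockout-labelled units. These ranges overlapped, and the log2 fold change was 0.22 ± 0.14 (SE; edgeR adjusted p = 0.306).

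Msmp, which lies inside Rgp1 on the other strand, and Npr2, which lies beyond Rgp1, were both at low levels. Msmp, a gene of a small secreted protein, was at 0.393, 0, 0.774 and 1.14 CPM against 1.88, 3.44 and 0.673 CPM, a log2 fold change of 1.79 ± 0.94 (SE; edgeR adjusted p = 0.2197). Msmp shares 92.0% of its 31-base words with other genes. All of its exon bases are covered by exons on the other strand, the strand of Rgp1, so its reads are uncertain. Npr2, which encodes the receptor of C-type natriuretic peptide, was at 0.787, 0.0488, 0.175 and 1.22 CPM against 1.13, 0.791 and 1.08 CPM, which overlap. Its log2 fold change was 0.93 ± 0.83 (SE; edgeR adjusted p = 0.474).

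On the side of lower coordinates the nearest gene that met the count minimum was Car9, which encodes a carbonic anhydrase that is induced by low oxygen. Car9 was at 2.202, 0.977, 2.07 and 0.914 CPM in the control units and at 3.17, 2.63 and 3.03 CPM in the knockout-labelled units, with no overlap, and its log2 fold change of 0.92 ± 0.42 (SE; edgeR adjusted p = 0.1599) did not pass. Arhgef39 (43496142 to 43499695, minus strand), a gene of a guanine nucleotide exchange factor, rose. It was at 3.78, 4.103, 3.52 and 1.83 CPM in the control units and at 6.46, 5.97 and 16.8 CPM in the knockout-labelled units. Unit 3 stood far above the others, and the log2 fold change was 1.55 ± 0.42 (SE; edgeR adjusted p = 0.0387). Without knockout-labelled unit 3 it was 0.91 (adjusted p = 0.175), and the call held in 2 of 7 fits that left out 1 unit.

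Ccdc107, a gene of a coiled-coil protein, had a log2 fold change of -0.27 ± 0.22 (SE; edgeR adjusted p = 0.447). Sit1 (43482081 to 43483734, minus strand), which encodes an adaptor at the T cell membrane that dampens receptor signalling, was at 19.4, 46.1, 42.3 and 27.2 CPM in the control units and at 37.4, 31.8 and 34.2 CPM in the knockout-labelled units. All knockout-labelled values lay inside the control range, and the log2 fold change was 0.03 ± 0.27 (SE; edgeR adjusted p = 0.957). Tesk1, a gene of a kinase that acts on cofilin, was at 15.8, 20.7, 33.3 and 22.9 CPM against 31.5, 33.9 and 34.5 CPM, with control unit 3 near the knockout-labelled units, and had a log2 fold change of 0.52 ± 0.22 (SE; edgeR adjusted p = 0.139). Exons on the other strand cover 32.1% of its exon bases. Tesk1 overlaps the B cell gene Cd72 on that strand, and reads there cannot be told apart. Tpm2, the tropomyosin gene that lies between Sit1 and Tln1, had 35 estimated reads in total and was not tested.

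**Figure D2:**
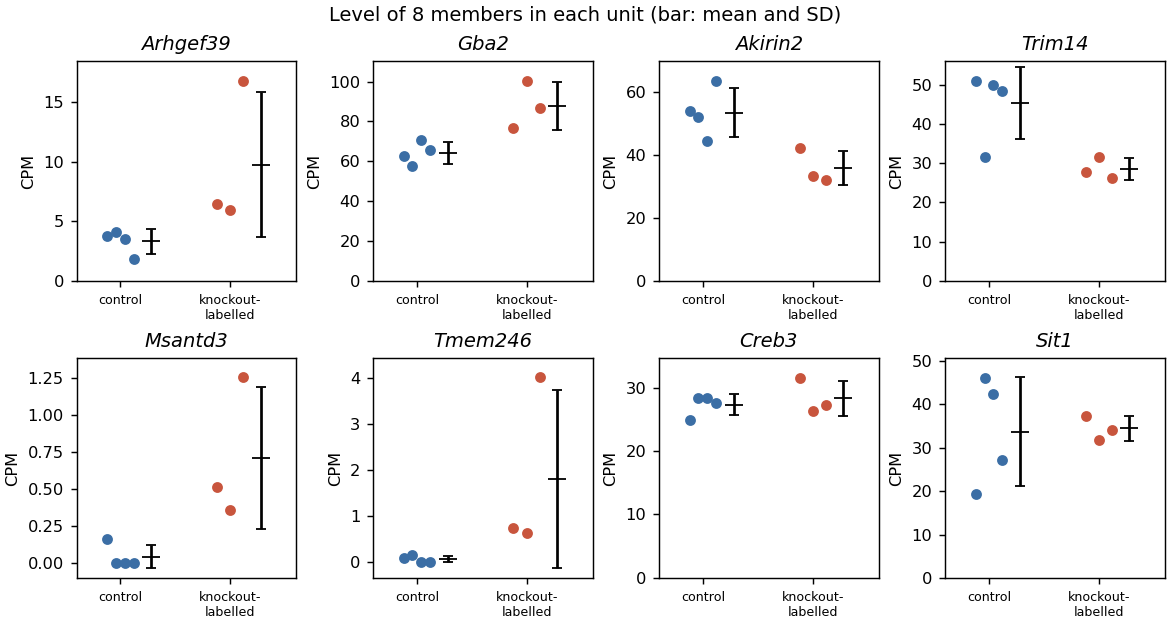
Level in CPM (y axis, from 0) of 8 flanking genes in each of the 4 control and 3 knockout-labelled units (points), with the mean and SD as bars beside them. The groups separate for Arhgef39, Gba2, Akirin2, Trim14, Msantd3 and Tmem246 and overlap for Creb3 and Sit1.

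By distance, the change fell from a positive to a negative median. The 23 genes up to 0.5 Mb from Tln1 had a median log2 fold change of 0.28, with 17 above 0, and the 26 genes at 0.5 to 2 Mb had 0.09, with 19 above 0. The 45 genes at 2 to 5 Mb had -0.09, with 22 above 0, and the 19 genes at 5 to 10 Mb had -0.28, with 4 above 0. In these zones 2, 0, 2 and 2 genes were called, beside 13.6% of all genes tested. In the nearest zone Rusc2, Msmp, Npr2, Fam221b, Atp8b5 and Ccin, all with estimates above 0, reached the count minimum only with the knockout-labelled units. The zone median of 0.28 was the value of Atp8b5 itself. The median of this zone and its count above 0 were thus partly set by that rule. Over the 113 genes the correlation of distance and log2 fold change was -0.15 (Pearson) and -0.40 (Spearman), given as a description, since the genes share the same 7 units.

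Unit by unit, the genes within 0.5 Mb had a median of -0.06, 0.03, 0.13 and -0.04 in control units 1 to 4 (log2(CPM + 0.5), relative to the control mean of each gene). In knockout-labelled units 1 to 3 they had 0.17, 0.32 and 0.25, above all control units. The 19 farthest genes had 0.13, 0.17, -0.13 and -0.04 in the control units and -0.14, -0.18 and -0.47 in the 3 others, where unit 3 was lowest and unit 1 lay just under control unit 3. The near zone rested in part on genes with few reads. With a minimum of 500 estimated reads its median was 0.11, and without knockout-labelled unit 3 it was 0.15.

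**Figure D3:**
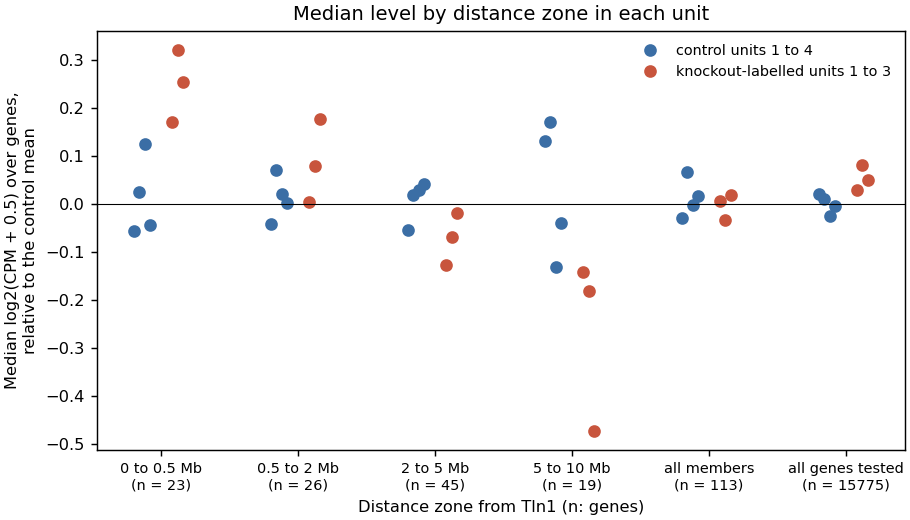
Median level of the flanking genes (log2(CPM + 0.5), relative to each gene's control mean, y axis) in each unit, by distance zone from Tln1. In the zone up to 0.5 Mb the knockout-labelled units lie at 0.17 to 0.32, above the control units, and in the zone at 5 to 10 Mb they lie at -0.14 to -0.47.

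Transcript GC content fell with distance as well. Its median was 54.2% up to 0.5 Mb, 53.7% at 0.5 to 2 Mb, 48.6% at 2 to 5 Mb and 44.5% at 5 to 10 Mb. The correlation of distance and GC content over the 113 genes was -0.57 (Pearson) and -0.56 (Spearman). The correlation of GC content and log2 fold change was 0.25 and 0.45 over the flanking genes, and 0.23 and 0.44 over all 15775 genes tested, so a relation of similar size ran through the whole table.

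At matched GC content the flanking genes lay close to the rest. Under 45% GC the median log2 fold change was -0.28 for 23 flanking genes and -0.35 for 3794 genes of the whole table. At 45 to 50% it was -0.02 and -0.05, at 50 to 55% 0.16 and 0.18, and above 55% 0.27 and 0.38. With the robust offset for GC content and length, the zone medians were 0.05, -0.01, 0.06 and -0.05 from near to far, beside 0.03 over all genes tested. With the least-squares offset they were -0.25, -0.29, -0.28 and -0.31, beside -0.27 over all genes tested. With the robust offset 2 of the 113 were called (Trim14 and Tmem246), against 7.26% of all genes. The correlation of distance with the robustly offset log2 fold change was -0.02 (Pearson) and -0.12 (Spearman). Control unit 3 was the only control unit as deep as a knockout-labelled unit, and a part of depth in the GC trend was not tested.

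**Figure D4:**
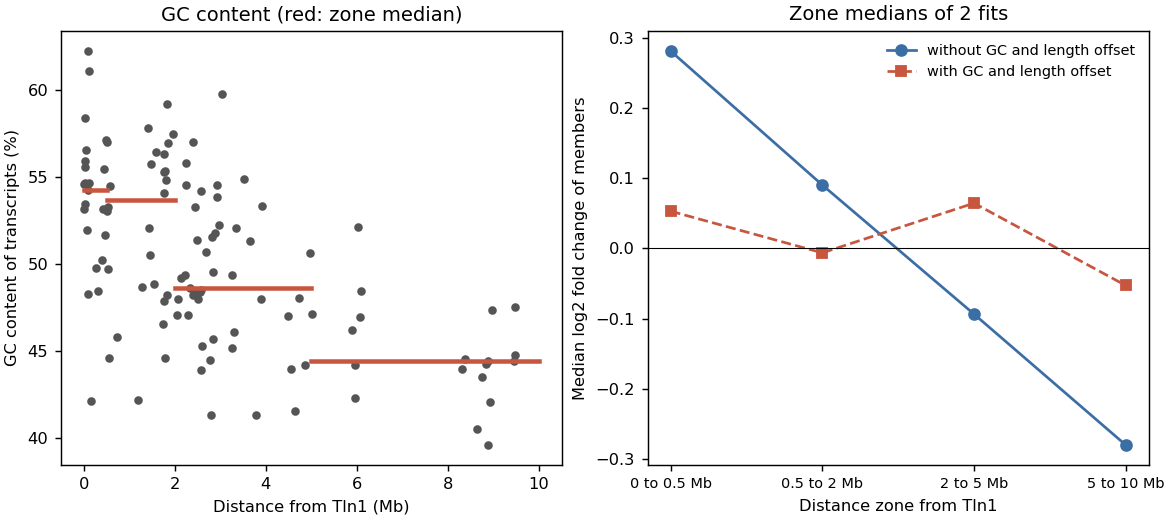
Left: transcript GC content in % (y axis) of each flanking gene (points) against distance from Tln1 in Mb (x axis), with zone medians in red, from 54.2% in the nearest zone to 44.5% in the farthest. Right: median log2 fold change of the flanking genes (y axis) by distance zone (x axis), which falls from 0.28 to -0.28 without an offset (blue) and lies between -0.05 and 0.06 with the robust GC and length offset (red).

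Immune and signalling genes made up 17 of the 113, of which 0 rose and 2 fell (beside 7.07% higher and 6.52% lower over all genes tested), with a median log2 fold change of 0.03. Akirin2 (34550937 to 34566908, plus strand) encodes a nuclear protein that is needed for the induction of a subset of inflammatory genes and for the import of proteasomes into the nucleus. It was at 54.1, 52.3, 44.4 and 63.6 CPM in the control units and at 42.3, 33.5 and 32.2 CPM in the knockout-labelled units, each of which was below every control unit. The log2 fold change was -0.57 ± 0.16 (SE; edgeR adjusted p = 0.04096), and the call held in 2 of 7 fits that left out 1 unit. Trim14 (46493781 to 46536141, minus strand), whose protein is an adaptor in antiviral signalling at mitochondria, was at 50.97, 31.7, 50.02 and 48.5 CPM in the control units and at 27.6, 31.5 and 26.2 CPM in the knockout-labelled units. Control unit 2 was almost level with knockout-labelled unit 2, and the other control units were well above. Its log2 fold change was -0.67 ± 0.18 (SE; edgeR adjusted p = 0.03796). It held in 1 of 7 fits that left out 1 unit and stayed called with the robust GC and length offset, at -0.84 (adjusted p = 0.0457). Exons on the other strand cover 38.0% of the exon bases of Trim14, and reads there cannot be told apart from those of Nans, whose exons overlap it.

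Of the same group, Tgfbr1, Nr4a3 and Ddx58 did not pass. Tgfbr1, which encodes the type I receptor of TGF-beta, was at 189, 161, 136 and 190.2 CPM against 169, 163 and 109 CPM, with only knockout-labelled unit 3 below the control range and a log2 fold change of -0.20 ± 0.18 (SE; edgeR adjusted p = 0.476), which turned to 0.17 with the robust GC and length offset. Nr4a3, a nuclear receptor gene that is induced by T cell receptor signals, was at 62.7, 41.9, 30.1 and 56.4 CPM against 30.2, 38.9 and 24.5 CPM. Control unit 3 lay among the knockout-labelled values, and the log2 fold change was -0.61 ± 0.26 (SE; edgeR adjusted p = 0.141). Ddx58, the gene of the RNA sensor RIG-I, was at 172, 149.5, 173 and 174 CPM against 151, 157 and 111 CPM and had a log2 fold change of -0.26 ± 0.15 (SE; edgeR adjusted p = 0.247).

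Promoter sequence is shown for Akirin2, as a gene that fell, for Msantd3, as a gene that rose, and for Sec61b, which faces the gene Alg2 across a shared start region. Each run is the 250 bases before the RefSeq start on the plus strand of GRCm38.p6, 5′ to 3′, and capitals mark the GC box GGGCGG or its reverse complement. Positions are chr4:34550365-34550614 for Akirin2, chr4:48539696-48539945 for the first of the Msantd3 starts and chr4:47474411-47474660 for Sec61b.
Akirin2: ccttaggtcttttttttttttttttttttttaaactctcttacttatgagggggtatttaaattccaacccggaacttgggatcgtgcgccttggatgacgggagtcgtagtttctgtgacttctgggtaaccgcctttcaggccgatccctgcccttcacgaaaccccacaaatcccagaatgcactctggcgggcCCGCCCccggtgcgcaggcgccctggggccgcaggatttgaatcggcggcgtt
Msantd3: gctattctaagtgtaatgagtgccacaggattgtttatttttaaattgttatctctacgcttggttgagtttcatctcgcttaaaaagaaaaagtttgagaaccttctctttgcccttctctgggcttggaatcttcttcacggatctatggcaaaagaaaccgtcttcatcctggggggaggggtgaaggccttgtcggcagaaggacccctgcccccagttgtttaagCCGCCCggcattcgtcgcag
Sec61b: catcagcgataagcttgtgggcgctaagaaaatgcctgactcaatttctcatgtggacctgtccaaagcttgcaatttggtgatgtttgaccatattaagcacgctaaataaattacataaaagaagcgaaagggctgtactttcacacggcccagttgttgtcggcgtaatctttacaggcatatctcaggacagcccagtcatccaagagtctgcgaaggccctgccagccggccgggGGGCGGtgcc
Each of the 3 holds 1 GC box and no CCAAT, searched on both strands, and GC content is 53.2%, 47.2% and 50%. Of 131 RefSeq promoters of 101 flanking genes, 64.1% held GGGCGG, against 54.2% of the 14014 promoters of tested protein-coding genes and 32.7% of all 32851 promoters of that length. CCAAT was in 32.8%, 35.2% and 33.8%. These matches describe the letters only.

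Genes that start head to head, with start sites on opposite strands within 1000 bases, or overlapping by up to 400 bases, formed 10 pairs in the window, Tln1 and Creb3 included. In 6 pairs both log2 fold changes had the same sign and in 4 they differed in sign. Alg2, which encodes a mannosyltransferase of the N-glycan pathway, starts 325 bases from Sec61b, the gene of a subunit of the protein channel of the endoplasmic reticulum. Alg2 was at 30.2, 31.8, 32.6 and 31.01 CPM against 26.6, 20.2 and 24.4 CPM, with no overlap, and had a log2 fold change of -0.40 ± 0.15 (SE; edgeR adjusted p = 0.0921). Sec61b was at 28.2, 30.04, 25.9 and 35.05 CPM against 34.1, 29.96 and 40.5 CPM, which overlap, and had 0.23 ± 0.16 (SE; edgeR adjusted p = 0.354). Orc3, of the origin recognition complex, and Rars2, of the mitochondrial arginyl-tRNA synthetase, start 13 bases apart, and their log2 fold changes were -0.32 ± 0.13 and -0.38 ± 0.16 (SE; edgeR adjusted p = 0.118 and 0.131). These 4 genes were chosen after their values were seen.

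At 5 to 10 Mb on the side of lower coordinates, all 9 flanking genes had log2 fold changes below 0, from -0.66 to -0.12, and for 5 the groups did not overlap, beside 30.8% of all genes tested and 39.6% of those under 45% GC. Of the 9, only Akirin2 passed. The median GC content of these 9 was 44.3%, and with the robust GC and length offset their median went from -0.38 to -0.11. Slc35a1, which encodes the transporter that brings CMP-sialic acid into the Golgi, was at 39.7, 39.2, 31.3 and 29.6 CPM against 26.2, 26.2 and 19.9 CPM, with a log2 fold change of -0.54 ± 0.17 (SE; edgeR adjusted p = 0.0629).

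The glycosylation and metabolism group held 22 flanking genes, of which 1 rose (Gba2) and 0 fell, beside 13.6% of all genes tested called in either direction, with a median log2 fold change of 0.11. Nans, which makes sialic acid phosphate in the same pathway that Slc35a1 serves, was at 41.9, 48.7, 46.6 and 45.3 CPM in the control units and at 55.3, 51.8 and 77.2 CPM in the knockout-labelled units, all of them above the control units. Its log2 fold change of 0.43 ± 0.15 (SE; edgeR adjusted p = 0.0867) did not pass, and it shares 29.6% of its exon bases with the other strand. Nans and Slc35a1 thus had estimates of opposite sign, and both were named after their values were seen.

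Among 18 genes of proteostasis and ubiquitin transfer, 0 passed in edgeR in either direction, beside 13.6% of all genes tested, with a median of 0.01. At an unadjusted p under 0.05 there were 3. DESeq2 called 3 (Chmp5, Ubap2 and Fbxo10), beside 22.5% of all genes tested. Vcp, the gene of the segregase that pulls ubiquitin-tagged proteins out of complexes and membranes, was at 255, 300.4, 319 and 277 CPM against 309, 253 and 359 CPM and had a log2 fold change of 0.09 ± 0.15 (SE; edgeR adjusted p = 0.714). Dnaja1, a co-chaperone gene, was at 414, 185, 149 and 475 CPM against 381, 448 and 317 CPM, with all knockout-labelled values inside the wide control range (log2 fold change 0.32 ± 0.44 (SE; edgeR adjusted p = 0.657)). Ubap2, a gene of a ubiquitin-associated protein, just missed the threshold, at 77.7, 67.5, 82.98 and 71.4 CPM against 82.8, 107 and 129.8 CPM, with knockout-labelled unit 1 inside the control range and a log2 fold change of 0.51 ± 0.16 (SE; edgeR adjusted p = 0.0578). Among 17 genes of RNA processing, transcription and translation, 0 passed in edgeR, beside the same 13.6%, and the median was -0.17. At an unadjusted p under 0.05 there were 3, and DESeq2 called 0, beside 22.5%. The list of membrane traffic and cytoskeleton genes held 13. It included Hemgn, a nuclear protein gene, and Col15a1, a collagen gene, which belong to neither function. Of the 13, 0 passed in edgeR, again beside 13.6%, and the median was 0.22. At an unadjusted p under 0.05 there were 3 (Rusc2, Hemgn and Col15a1), and DESeq2 called 1 (Rusc2), beside 22.5%. Groups of this size are too small for a share of 0 to be set apart from these. Clta, which encodes a light chain of clathrin, was at 62.1, 79.1, 71.1 and 75.9 CPM against 67.7, 55.4 and 72.7 CPM, and its log2 fold change was -0.14 ± 0.14 (SE; edgeR adjusted p = 0.516).

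Of 9 genes of DNA replication, repair and division, 1 rose (Arhgef39) and 0 fell, beside 13.6% of all genes tested, with a median of 0.13. Melk, a kinase gene of dividing cells, was at 7.16, 4.05, 5.62 and 3.05 CPM in the control units and at 5.31, 3.88 and 15.9 CPM in the knockout-labelled units. Smc2, of the condensin complex, was at 73.9, 42.2, 39.6 and 47.2 CPM against 53.1, 42.3 and 123 CPM. Both stood highest in knockout-labelled unit 3, as Arhgef39 did, and neither passed (0.75 ± 0.49 and 0.52 ± 0.42, SE; edgeR adjusted p = 0.325 and 0.4397).

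Unit 3 also stood apart for genes of red cells. Hemgn, a nuclear protein gene of blood progenitors, was at 5.51, 4.59, 0.774 and 0.533 CPM in the control units and at 4.34, 6.43 and 132 CPM in the knockout-labelled units. Tmod1, which caps actin filaments in the red cell skeleton, was at 1.97, 0.537, 0.2997 and 0.838 CPM against 0.332, 0.5104 and 17.3 CPM. Exons on the other strand, where Tmod1 overlaps Tstd2, cover 32.6% of its exon bases, so its low values are uncertain. The log2 fold changes of Hemgn and Tmod1, 4.09 ± 1.62 and 2.79 ± 1.53 (SE; edgeR adjusted p = 0.152 and 0.266), did not pass, and in units 1 and 2 both lay within or near the control range. The summed level of 14 other measured erythroid and platelet markers was 38.6 to 78.6 CPM in the control units and 295, 121 and 3749 CPM in knockout-labelled units 1 to 3. Of the 12 of them that were tested, 1 was higher and 0 were lower, beside 7.07% and 6.52% of all genes tested. Their part in the levels of Hemgn and Tmod1 was not tested.

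**Figure D5:**
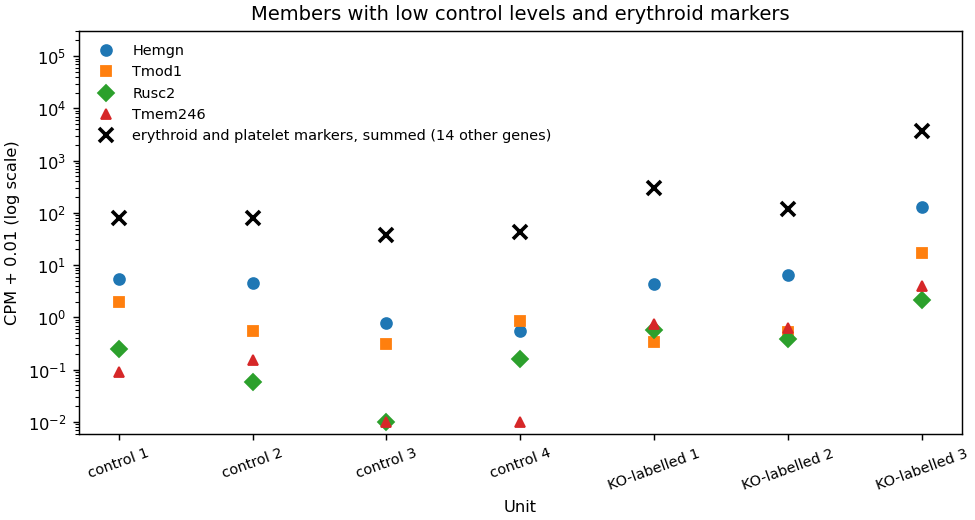
Level (CPM + 0.01, log scale, y axis) of Hemgn, Tmod1, Rusc2 and Tmem246 in each unit (x axis), with the summed level of 14 other erythroid and platelet markers as crosses. Each of the 4 genes and the markers are highest in knockout-labelled unit 3, where the markers reach 3749 CPM.

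The largest folds were of genes that were nearly silent in the control units. Tmem246, Msantd3 and Rusc2 reached the count minimum only with the knockout-labelled units, so a high ratio was partly a condition for being included. Tmem246 (49584506 to 49597876, minus strand), which encodes a membrane protein of the GPI anchor pathway, had 4 estimated reads in all control units together and 284 in the knockout-labelled units. Per unit it was at 0.0787, 0.147, 0 and 0 CPM and at 0.7304, 0.612 and 4.02 CPM, the highest in unit 3. The log2 fold change was 5.04 ± 1.12 (SE; edgeR adjusted p = 0.0205), and the ratio of pooled CPM was 43.5, with a 95% interval of 16.8 to 161 that covers counting error only. The call held in 5 of 7 fits that left out 1 unit, and not without knockout-labelled unit 3, where the adjusted p was 0.111, nor without control unit 4, where it was 0.0618. With the robust GC and length offset it stayed called, at 4.91 (adjusted p = 0.0356).

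Msantd3 (48539935 to 48561919, plus strand), a gene of a protein with a DNA-binding domain of the Myb type, had 2 reads in the control units against 108. It was at 0.157, 0, 0 and 0 CPM and at 0.509, 0.357 and 1.26 CPM. The log2 fold change was 4.57 ± 1.20 (SE; edgeR adjusted p = 0.0342), the pooled ratio was 33.1 (counting interval 8.95 to 277), and the call held in 1 of 7 fits that left out 1 unit. Rusc2, of a protein that binds Rab GTPases, had 6 and 161 reads. It was at 0.236, 0.0488, 0 and 0.152 CPM and at 0.575, 0.383 and 2.13 CPM, and its log2 fold change of 3.52 ± 1.06 (SE; edgeR adjusted p = 0.0525) just missed the threshold. The pooled ratio of Rusc2 was 16.5 (counting interval 7.40 to 45.5).

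Markers of other blood cells were higher in the same units. The summed level of 18 B cell markers was 114 to 314 CPM in the control units and 777 to 1373 CPM in the knockout-labelled units (9 higher and 0 lower). That of 18 myeloid markers was 45.1 to 367 against 433 to 1240 CPM (4 higher, 0 lower), and that of 12 granulocyte markers 13.2 to 44.4 against 317 to 1683 CPM (10 higher, 0 lower). The summed level of 10 regulatory T cell markers was 4619 to 5241 against 2806 to 3764 CPM, with 0 higher and 4 lower. Over all genes tested, 7.07% were higher and 6.52% lower. Foxp3, which is on the regulatory T cell list, was level, with a log2 fold change of 0.03 ± 0.18 (SE; edgeR adjusted p = 0.923). No marker of these 4 lists was at 0 in every unit. Pax5, the B cell factor left out of the flanking genes, was at 1.18, 0.244, 0.02497 and 0.6095 CPM against 7.902, 6.97 and 3.77 CPM and passed (log2 fold change 3.73 ± 0.89 (SE; edgeR adjusted p = 0.03300)), whereas Cd72 was at 39.5, 43.1, 37.9 and 28.2 CPM against 50.7, 51.9 and 37.01 CPM and did not (adjusted p = 0.235 in edgeR). The part of these cells in the levels of Tmem246, Msantd3, Rusc2 and Arhgef39 was not tested.

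Flanking genes at low levels varied most. The 24 genes with a mean under 5 CPM had a median log2 fold change of 0.29 and a median SE of 0.54, and the 95% interval lay within 2-fold for 3 of them. The 89 genes at 5 CPM or more had 0.01 and 0.18, with 74 intervals within 2-fold. Sequence shared with other genes limits some values as well: 21 flanking genes share more than 10% of their 31-base words with another gene and 5 share more than 50%, and 39 have exon bases covered on the other strand.

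At the level of single transcripts, 304 transcripts of 96 flanking genes were tested with limma on log2(TPM + 1), and 3 passed, against 2.03% of the 33274 transcripts tested in all. TPM is a read number per length, scaled to the same total in every table. Of the 3 transcripts that passed, 1 is described here. In Dnajb5, a co-chaperone gene of the Hsp40 family, the coding transcript ENSMUST00000098112 of 3093 bases fell. It was at 2.88, 2.51, 3.04 and 2.98 TPM in the control units and at 0.201, 1.09 and 0.169 TPM in the knockout-labelled units (-1.43 ± 0.26 in log2(TPM + 1); limma adjusted p = 0.0439). A shorter coding transcript, ENSMUST00000107973, of 2300 bases, was at 0.458, 1.80, 1.11 and 0 against 2.94, 4.25 and 2.75 TPM, with no overlap, and did not pass (1.32 ± 0.37; limma adjusted p = 0.117). The gene total was level, at 17.5, 20.03, 21.1 and 17.5 CPM against 18.4, 23.3 and 16.4 CPM and a log2 fold change of 0.02 ± 0.19 (SE; edgeR adjusted p = 0.946). The split of reads among transcripts of 1 gene is an estimate of the authors' software, and values listed at 0 can be failed estimates.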

How the data were processed

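The 14 abundance tables were made with kallisto on a GRCm38 transcriptome, per the submitters' processing notes; its version is not given in the sources used here, nor is the release of the annotation. The deposited estimated counts (expected counts, not normalized by the authors) and TPM values were used as given, per the file headers. The library kit was non-stranded, per the labels' protocols. The 88198 transcripts were matched by identifier to GENCODE M21; 2079 without a gene (1.17% to 1.28% of reads) were left out, and counts were summed to 30284 genes. The 2 samples of a unit, named by the first number of the title, were summed and rounded, since they differed by a chi-square per degree of freedom of 1.44 to 1.88, against 7.36 to 109 between units of a group.

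All genes were fitted with edgeR 4.0.16 in R 4.3.3 (TMM, filterByExpr, robust quasi-likelihood, group only, Benjamini-Hochberg, FDR 0.05), CPM being counts scaled to library size after TMM. No label ties units to animals, so a p-value reflects only how far units differ, part of which may be technical. Transcripts averaging 1 TPM or more were tested with limma 3.58.1 on log2(TPM + 1). Both were tested on simulated data. DESeq2 1.42.0, limma-voom, other scalings and filters, offsets for effective length and for GC content and length, a replicate block and leaving out each unit were alternatives. The GC and length trend was planned without a fitting method and first fitted by least squares; the robust local regression was chosen after those values were seen. Promoters come from RefSeq (GRCm38.p6).

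Members and lists were chosen with earlier results of these data known. Genes named were those past the threshold, the 5 nearest to Tln1 on each side, Sit1, Tgfbr1, Nr4a3, Ddx58, Vcp, Clta, Tpm2, Creb3, Tln1, Foxp3 and those at the count limit. All others named (among them Rusc2, Hemgn, Tmod1, Melk, Smc2, Orc3, Rars2, Slc35a1, Nans, Alg2, Sec61b, Ubap2, Dnaja1, Dnajb5, Pax5, Cd72 and the genes at the window's ends) were chosen after their values were seen. Of the 3 transcripts past the limma threshold, 2 are not reported here.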

Additional observations from a re-analysis of the deposited data

Results flagged for a closer look

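Among 47 sets of control values checked for a unit far from the other 3 by Dixon's ratio, 4 met the criterion; chance gives about 1 in 20. Control unit 2 had the lowest Trim14 level, at 31.7 CPM, and the lowest Ddx58 level, at 149.5 CPM. Control unit 1 had the highest level of Msantd3, at 0.1573 CPM, and of Tpm2, at 0.07865 CPM, where the other 3 control units were at 0. With 3 values at 0 any value above 0 meets the criterion, so these 2 say nothing about unit 1.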

How the results depend on the processing

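Members called were 6 of 113, from 2144 genes in all. The DESeq2 Wald test gave 13 and 3546, limma-voom gave 3 members, the robust GC and length offset, added after the least-squares values were seen, gave 2 and 1146, and the least-squares offset gave 22 members (20 of them lower) and 3059. Other scalings, filters and the effective-length offset gave 4 to 6. With a replicate block it was 0 of 113 (17 at an unadjusted p under 0.05) and 612 in all. Same-numbered units deviated with correlations of 0.02, -0.17 and -0.04, and units of different number with -0.25 to 0.25. Whether the numbers pair the samples cannot be told from so few weak correlations. Leaving out each unit in turn gave 0 to 6 members and 758 to 1905 genes. The median of the 113, 0.03, was -0.029 to 0.057 in those fits and -0.28 with least squares. The zone medians, from near to far, were 0.053, -0.0062, 0.065 and -0.053 with the robust offset, and -0.25, -0.29 and -0.28 in the first 3 zones with least squares. Leaving out each unit, the first 3 zones ran from 0.15 to 0.31, from 0.070 to 0.16 and from -0.12 to 0.019. The zone at 2 to 5 Mb was -0.016 with the effective-length offset and 0.031 with the replicate block. With a minimum of 500 reads, chosen after seeing the data, the nearest zone was 0.11. The sign turned with the robust offset for Tgfbr1 (0.17), Creb3 (-0.080), Sit1 (-0.19), Rgp1 (-0.13) and Foxp3 (-0.26), and with least squares for Gba2 (-0.079), Tesk1 (-0.17), Sit1 (-0.55), Creb3 (-0.42), Rgp1 (-0.40), Vcp (-0.22), Tln1 (-0.25) and Foxp3 (-0.52, the latter past the threshold). It also turned for Tln1 with the effective-length offset (-0.40) and for Ccdc180 with limma-voom (0.79). Leaving out each unit, it turned in at least 1 fit for Sit1 (-0.16 to 0.21), Ccdc180 (-0.96 to 0.43), Foxp3 (-0.12 to 0.12), Creb3 (-0.037 to 0.10) and Vcp (-0.035 to 0.21). Least squares also moved the median of all genes tested to -0.27, so its signs are relative to that. Transcripts called were 3, against 1 with log2(TPM + 0.1) and 0 to 6 when each unit was left out. The cause of these differences was not tested. Few control reads limit Msantd3, Tmem246 and Rusc2, and control units 1 and 4 were the shallowest.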
